A study of Mus musculus with 151 samples.

Results

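The motile cilia genes described here are 42 genes for the machinery that builds and drives motile cilia, named as a list of genes. All 42 were listed in each of the 7 gene count tables of the study, among 35976 gene names in the table of 12-week-old ovaries. They were grouped by role into 6 regulators of the ciliary programme (*Foxj1*, *Mcidas*, *Ccno*, *Gmnc*, *Rfx2* and *Rfx3*), 7 genes of the outer dynein arm and its docking complex (*Dnah5*, *Dnah9*, *Dnah11*, *Dnaic1*, *Dnaic2*, *Ccdc114* and *Armc4*), 7 genes of the inner dynein arms (*Dnah2*, *Dnah3*, *Dnah6*, *Dnah7a*, *Dnah10*, *Dnah12* and *Dnali1*), 2 dynein arm assembly factors (*Zmynd10* and *Lrrc6*), 3 genes of the axonemal ruler and nexin link (*Ccdc39*, *Ccdc40* and *Drc1*), 3 radial spoke genes (*Rsph1*, *Rsph4a* and *Rsph9*), 5 genes of the central apparatus (*Spag6*, *Spag16*, *Spag17*, *Hydin* and *Spef2*), 3 tektins (*Tekt1*, *Tekt2* and *Tekt4*) and 6 other genes of the axoneme or cilium (*Ccdc113*, *Ak7*, *Ak8*, *Tppp3*, *Dynlrb2* and *Fam183b*).

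Motile cilia are beating hair-like extensions built on a ring of microtubule doublets around a central pair, and dynein arms on the doublets make them bend. In the female reproductive tract they are carried by multiciliated cells of the oviduct, which share the lining with secretory cells that make the oviductal glycoprotein *Ovgp1*. The geminin-family coiled-coil proteins *Gmnc* and *Mcidas* start the multiciliated programme, *Ccno*, a cyclin-like protein, takes part in the multiplication of centrioles, the forkhead factor *Foxj1* switches on axonemal genes, and *Rfx2* and *Rfx3* bind ciliary promoters.

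The study compared female mice conceived by natural mating (Natural) with females conceived by in vitro fertilization (IVF). In both groups the mothers were CF-1 and the fathers B6/SJL, and no group carried an engineered allele. Natural embryos developed in utero without embryo transfer, whereas IVF embryos came from CF-1 females superovulated with equine and human chorionic gonadotropin, were fertilized and cultured to the blastocyst and were transferred to pseudopregnant recipients. Bulk RNA-seq of ovaries from individual females comprised 10 libraries of the embryonic day E18.5, of which 6 were IVF, 9 libraries at 12 weeks, of which 5 were IVF, and 10 at 39 weeks, of which 5 were IVF. Low-input RNA-seq comprised primordial germ cells (PGCs) at E13.5 (Natural n = 4, IVF n = 5), single oocytes at 12 weeks (Natural n = 36, IVF n = 40) and at 39 weeks (Natural n = 9, IVF n = 10), and 12-week cumulus cells (n = 5 per group). The adult females of both groups were delivered by cesarean section and fostered by CF-1 dams, RNA came from part of a frozen adult ovary or from a whole E18.5 gonad, and the oocytes and cumulus cells came from superovulated females. Stage of the estrous cycle was stated only for females used for hormone measurements.

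Levels are given in CPM, the gene's count scaled to a library total of 1000000. The library totals were 6995713 to 14830788 counts in E18.5 ovaries, 2839022 to 43363799 counts in 12-week ovaries and 18079970 to 38751638 counts in 39-week ovaries. Ovarian markers were present in all 29 ovaries, in which 7 granulosa cell markers summed to 217 CPM or more and 7 oocyte markers to 8.11 CPM or more. No threshold was set for these sums, and they do not show what other tissue a sample held. A pair of adult libraries stood apart from their groups for the motile cilia genes. The 39-week library IVF 1 had the highest level of its table for 41 of the 42 genes, all but *Spag6*, and the 12-week library IVF 3 had the lowest of its table for 38 genes, all but *Mcidas*, *Ccno*, *Dnah10* and *Spag6*. The general epithelial markers (12 genes such as *Epcam* and keratins) stood apart with them, at 2726 CPM in 39-week IVF 1 against 68.4 to 229 CPM in the other 39-week ovaries, and at 124 CPM in 12-week IVF 3 against 362 to 1945 CPM in the other 12-week ovaries. Results that rest on either library are given with and without it.

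Promoter sequences of the motile cilia genes were read from RefSeq (assembly GRCm38.p6) as 300 bases, from 250 before to 50 after the transcription start, and 5 are shown because their genes mark the contrasts described below. *Ccno* was the member with the highest level per kilobase in the E18.5 ovary and in 12-week oocytes and the only one called lower at 12 weeks than at E18.5, *Mcidas* is its neighbour with a different pattern, *Zmynd10* and *Tekt4* rose by 12 weeks with most members, and *Dnah2* departed from the others in the adult ovary. *Ccno* (chr13:112987552-112987851, plus strand), *Mcidas* (chr13:112993618-112993917, plus), *Zmynd10* (chr9:107547054-107547353, plus), *Tekt4* (chr17:25471340-25471639, plus) and *Dnah2* (chr11:69549059-69549358, minus) each read 5′ to 3′ on the strand of the gene across its start site, and capitals mark a pair of RFX half-sites, GTNNCCNNNGNNAC, found on either strand.
Ccno: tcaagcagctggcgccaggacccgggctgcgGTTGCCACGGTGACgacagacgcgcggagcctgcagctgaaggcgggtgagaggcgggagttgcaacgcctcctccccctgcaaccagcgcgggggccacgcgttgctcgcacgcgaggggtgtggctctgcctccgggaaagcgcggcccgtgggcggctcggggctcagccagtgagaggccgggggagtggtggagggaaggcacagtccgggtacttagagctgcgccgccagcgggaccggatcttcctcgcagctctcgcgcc
Mcidas: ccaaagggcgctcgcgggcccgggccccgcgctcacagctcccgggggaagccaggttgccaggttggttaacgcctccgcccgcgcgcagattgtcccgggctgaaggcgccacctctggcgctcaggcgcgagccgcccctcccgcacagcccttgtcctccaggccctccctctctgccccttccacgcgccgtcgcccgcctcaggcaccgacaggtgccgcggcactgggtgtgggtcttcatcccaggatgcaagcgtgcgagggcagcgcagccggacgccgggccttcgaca
Zmynd10: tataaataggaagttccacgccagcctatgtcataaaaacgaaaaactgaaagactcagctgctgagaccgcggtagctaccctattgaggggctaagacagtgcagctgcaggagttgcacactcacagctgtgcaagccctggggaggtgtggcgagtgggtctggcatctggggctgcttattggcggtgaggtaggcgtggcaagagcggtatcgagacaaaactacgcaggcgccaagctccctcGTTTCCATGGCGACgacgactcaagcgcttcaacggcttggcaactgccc
Tekt4: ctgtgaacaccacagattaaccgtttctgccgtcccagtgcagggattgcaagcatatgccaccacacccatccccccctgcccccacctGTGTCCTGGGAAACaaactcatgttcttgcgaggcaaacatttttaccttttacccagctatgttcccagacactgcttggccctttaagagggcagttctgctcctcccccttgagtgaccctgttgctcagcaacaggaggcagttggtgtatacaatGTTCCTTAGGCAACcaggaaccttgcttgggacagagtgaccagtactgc
Dnah2: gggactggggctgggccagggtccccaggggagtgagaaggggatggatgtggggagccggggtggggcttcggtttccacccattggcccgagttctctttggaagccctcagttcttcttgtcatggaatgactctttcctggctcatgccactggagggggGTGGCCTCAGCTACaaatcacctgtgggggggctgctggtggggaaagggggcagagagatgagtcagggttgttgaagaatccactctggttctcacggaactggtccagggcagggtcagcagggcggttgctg
*Mcidas* had no match to the RFX pair in this window and *Tekt4* had 2. A promoter sequence was found for 35 of the 42 genes, not for *Foxj1*, *Dnah3*, *Rsph1*, *Rsph4a*, *Armc4*, *Lrrc6* and *Tppp3*. The RFX pair was present for 11 genes, namely *Ccdc114*, *Ccno*, *Dnah10*, *Dnah2*, *Hydin*, *Rfx2*, *Rsph9*, *Spag16*, *Tekt1*, *Tekt4* and *Zmynd10*, which made 28.2% of 39 member promoters against 4.62% of all 32851 promoters of this length. The forkhead core TGTTTAC, searched on both strands, was present for *Ak7* only, 2.56% of member promoters against 3.65% of all. A match of letters describes the sequence and is not a measured binding site.

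The motile cilia genes were low in the fetal ovary, high in most 12-week ovaries and low again in 9 of 10 ovaries at 39 weeks. Their summed level was 226 to 322 CPM in Natural ovaries at E18.5 (median 280.6) and 213 to 307 CPM in IVF ovaries (median 281.7), a spread of 1.43-fold and 1.44-fold from the lowest to the highest. At 12 weeks it was 1328, 862, 2471 and 778 CPM in Natural ovaries 1 to 4 and 603, 1096, 118, 594 and 1143 CPM in IVF ovaries 1 to 5, so the spread had widened to 3.18-fold and 9.65-fold. At 39 weeks it was 215, 100.5, 83.1, 111 and 129 CPM in Natural ovaries 1 to 5 and 4178, 168, 126.5, 147.5 and 85.4 CPM in IVF ovaries 1 to 5. The IVF mean of 941 ± 1810 CPM (SD, n = 5) came down to 132 CPM without IVF 1, beside a Natural mean of 127.5 ± 51.4 CPM (SD, n = 5). IVF 1 was 30.5-fold above the median of the other 4 IVF ovaries and 1.69-fold above the highest ovary of 12 weeks.

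**Figure D1:**
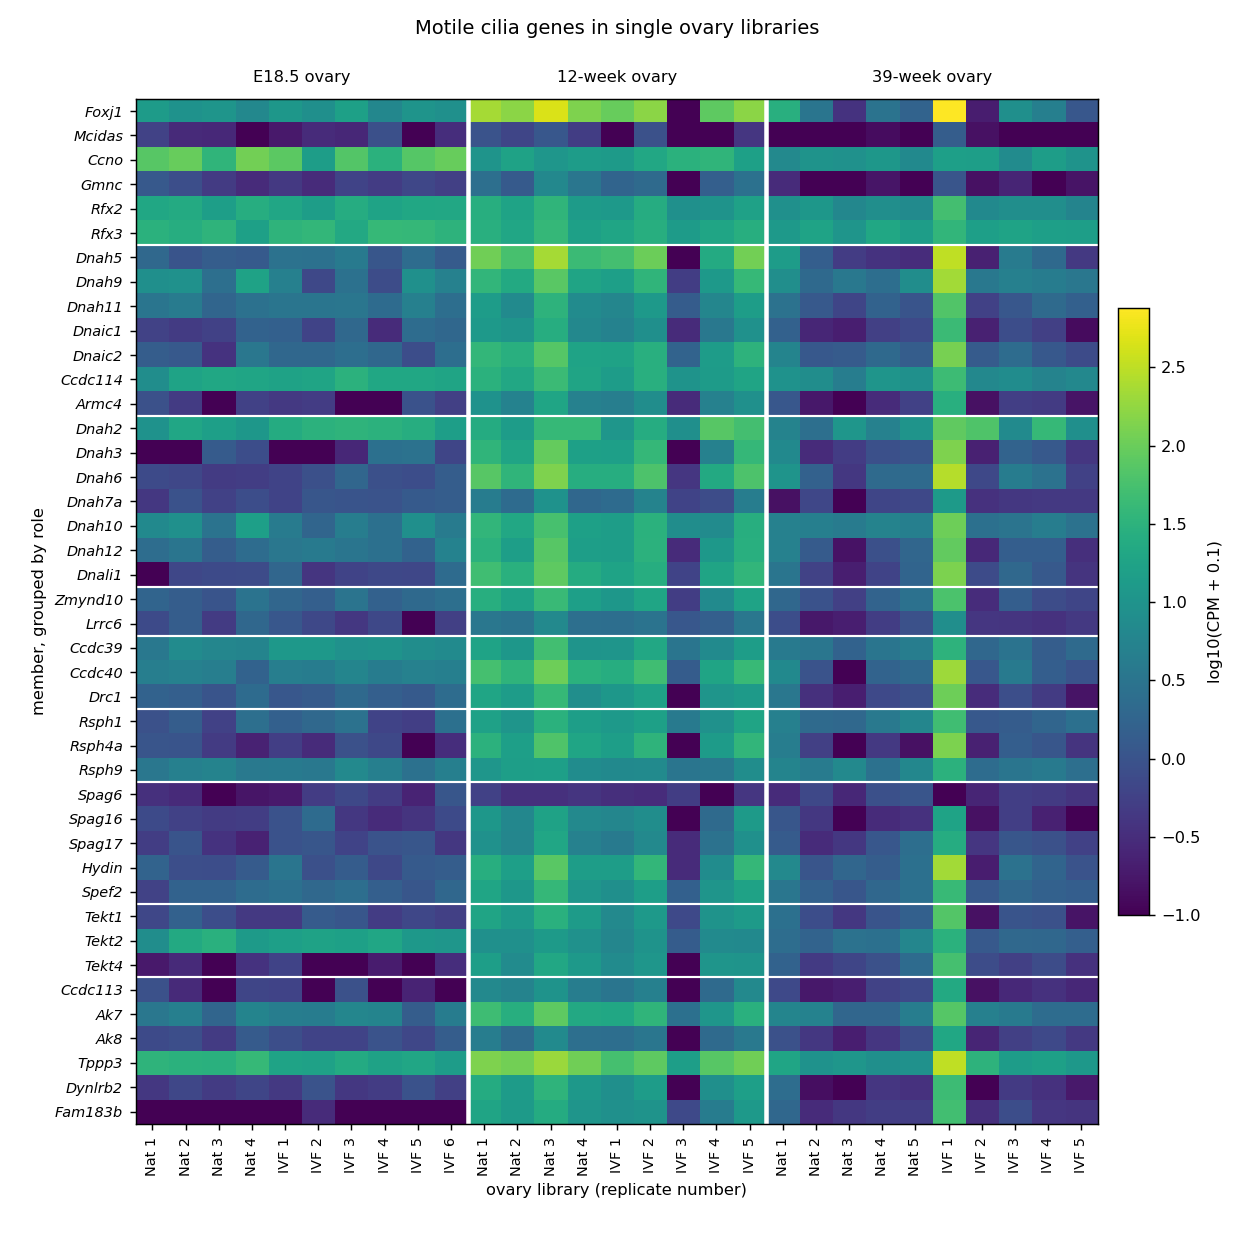
Heatmap of the level of each of the 42 motile cilia genes (one line per gene, ordered by role) in each of the 29 ovaries (columns, ordered by age and group), coloured by log10 of CPM plus 0.1. The 12-week ovaries and the 39-week ovary IVF 1 are bright for nearly all genes, while 12-week IVF 3 and the other 39-week ovaries are dark, and Ccno does not follow this pattern.

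**Figure D2:**
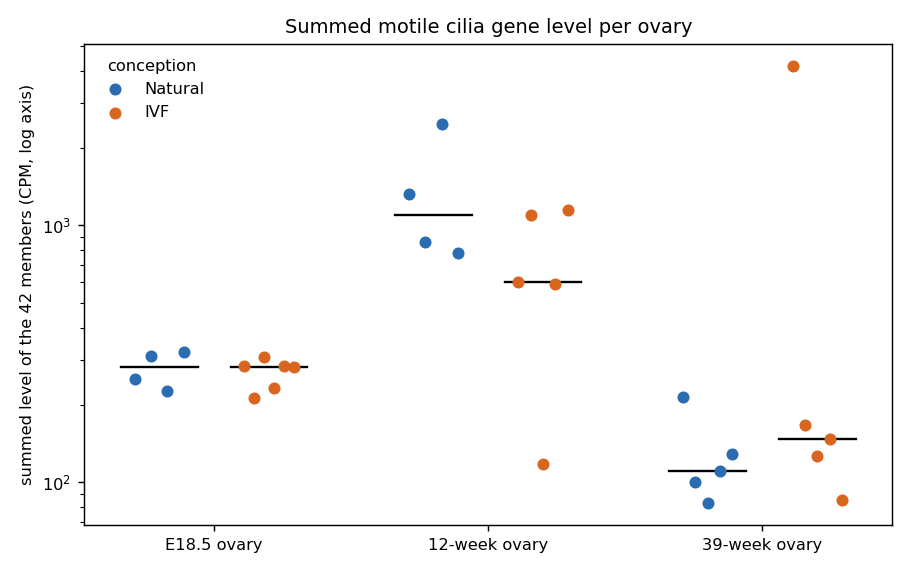
Summed level of the 42 motile cilia genes in each ovary (dots, CPM on a log axis) by age and group, with a line at the median of each group. The E18.5 ovaries lie within 213 to 322 CPM, the 12-week ovaries spread from 118 to 2471 CPM, and at 39 weeks IVF 1 lies at 4178 CPM above 9 ovaries between 83.1 and 215 CPM.

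Compared per kilobase of exon, *Foxj1* led the members in the 12-week Natural ovary, with a mean level of 94.3 CPM per kb, followed by *Tppp3*, a tubulin polymerization-promoting protein, at 75 CPM per kb and the dynein light chain *Dynlrb2* at 37.4 CPM per kb. The lowest levels were those of *Mcidas*, at 0.299 CPM per kb, and *Spag6*, at 0.0916 CPM per kb. In the E18.5 Natural ovary *Ccno* ranked above all other members, at 31 CPM per kb, with *Tppp3* at 17.9, the tektin *Tekt2* at 9.6 and *Foxj1* at 3.77 CPM per kb. *Foxj1* lies on chr11:116330704-116335399 (minus strand), and *Ccno* (chr13:112987802-112990777) and *Mcidas* (chr13:112993845-113000394) lie near each other on the plus strand (GRCm38).

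To follow the genes with age, ovaries of the 3 ages were compared within each group by edgeR's quasi-likelihood test in 1 model of all 29 ovaries. Since each age was deposited in its own table, age and any difference in collection or sequencing between the tables cannot be told apart, and in whole ovaries more cells of a type and more RNA per cell cannot be told apart either. In Natural ovaries 29 of the 42 genes were higher at 12 weeks than at E18.5 (adjusted p below 0.05; 25.3% of all 19724 genes tested were called higher) and 1, *Ccno*, was lower (24.3% of all genes were called lower). The median log2 fold change of the 42 genes was 3.86, against 0.01 over all genes. For 34 genes every 12-week Natural ovary lay above every E18.5 Natural ovary. This count is given without its share over all genes and describes the members only.

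Among the regulators, *Foxj1* and *Ccno* moved in opposite directions. *Foxj1* was 13.3, 9.36, 10.5 and 6.41 CPM in Natural ovaries 1 to 4 at E18.5 and 231, 159, 464 and 135 CPM at 12 weeks. The groups did not overlap, and *Foxj1* rose by 4.69 on the log2 scale (SE 1.64, edgeR adjusted p = 0.0191). *Ccno* was 75.2, 95, 34.5 and 112 CPM at E18.5 and 10.2, 17.4, 10.9 and 13.9 CPM at 12 weeks. Every fetal ovary lay above every adult one, and *Ccno* fell by 2.52 on the log2 scale (SE 0.42, edgeR adjusted p = 1.94e-05). *Gmnc*, at the head of the multiciliated programme, was 1.14, 0.748, 0.368 and 0.202 CPM at E18.5 and 2.48, 1.18, 6.36 and 3.28 CPM at 12 weeks, higher by 2.48 on the log2 scale (SE 0.95, edgeR adjusted p = 0.0325). *Mcidas*, at 0.487, 0.187, 0.184 and 0 CPM and then 0.87, 0.54, 1.03 and 0.401 CPM, did not pass the test, with a log2 fold change of 1.75 (SE 1.3, edgeR adjusted p = 0.273). Its E18.5 and 12-week values overlapped. *Rfx2* and *Rfx3* had log2 fold changes of 0.21 and 0.02 (edgeR adjusted p = 0.749 and 0.97).

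The axonemal genes were counted by class. Of the outer arm genes 4 of 7 were higher, and *Dnah5*, an outer arm heavy chain, went from 1.95, 0.935, 1.29 and 1.15 CPM to 111, 57.4, 226 and 43.5 CPM. None of these values overlapped, and the log2 fold change was 6.4 (SE 1.89, edgeR adjusted p = 0.00638). Of the inner arm genes 5 of 7 were higher, and *Dnah6* went from 0.649, 0.561, 0.368 and 0.405 CPM to 73.7, 35.1, 133 and 26 CPM, a log2 fold change of 7.12 (SE 1.78, edgeR adjusted p = 0.0017). The assembly factor *Zmynd10* went from 1.7, 1.31, 0.92 and 2.9 CPM to 26.7, 17.4, 43.4 and 15.3 CPM, a log2 fold change of 3.96 (SE 1.22, edgeR adjusted p = 0.00879). Its fetal and adult values did not overlap. All 3 genes of the ruler and nexin link were higher. *Ccdc40*, which with *Ccdc39* sets the repeat along the axoneme, went from 4.46, 5.05, 4.42 and 1.55 CPM to 55.5, 33.1, 107 and 30 CPM (log2 fold change 3.93, SE 1.35, edgeR adjusted p = 0.0172).

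All 3 radial spoke genes were higher too. *Rsph4a*, a spoke head protein, went from 0.974, 0.935, 0.368 and 0.135 CPM to 31.4, 15.5, 64.7 and 19.4 CPM (log2 fold change 5.83, SE 1.80, edgeR adjusted p = 0.0088). The central apparatus had 4 of 5 genes higher, and *Hydin* went from 1.62, 0.748, 0.736 and 1.21 CPM to 27.6, 15.4, 76.3 and 14.3 CPM (log2 fold change 4.98, SE 1.56, edgeR adjusted p = 0.00982). Every 12-week Natural ovary was above every fetal one for both genes. *Tekt1*, a filament protein of the doublets, went from 0.568, 1.5, 0.736 and 0.337 CPM to 18.4, 12.2, 29.5 and 13.3 CPM (log2 fold change 4.64, SE 1.42, edgeR adjusted p = 0.0084). Its family member *Tekt4* was also higher, by 6.64 on the log2 scale, and *Tekt2* was not called (log2 fold change -0.82, edgeR adjusted p = 0.369). *Tppp3* was well above 0 in the fetus, at 33.1, 30.2, 29.4 and 39.6 CPM, and reached 134, 112, 200 and 109 CPM (log2 fold change 2.13, SE 0.72, edgeR adjusted p = 0.0162). *Fam183b* had no count in any fetal Natural ovary and 1730 counts in the 12-week Natural ovaries, at least 271-fold higher in CPM against a floor of 3 counts over the fetal group. Besides *Mcidas*, *Rfx2*, *Rfx3* and *Tekt2*, the genes that did not pass were *Dnah9*, *Dnah11*, *Ccdc114*, *Dnah2*, *Dnah10*, *Lrrc6*, *Spag6* and *Ak8*, with log2 fold changes from 0.88 to 2.48.

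IVF ovaries showed 27 genes higher at 12 weeks than at E18.5 (30.8% of all genes were called higher) and *Ccno* lower (28.2% of all genes), with a median log2 fold change of 2.58 (0.01 over all genes). The rise was set by 4 of the 5 ovaries. *Foxj1* was 6.27 to 16.2 CPM in the 6 fetal IVF ovaries (median 9.5) and 95.1, 164, 0, 84.2 and 160 CPM in 12-week IVF ovaries 1 to 5. IVF 3 had no *Foxj1* count, where 3 counts would be 0.308 CPM, and lay below every fetal ovary, and the other 4 lay above all of them. The log2 fold change of *Foxj1* was 3.42 (SE 1.3, edgeR adjusted p = 0.0261). All 12-week IVF ovaries were above all fetal IVF ovaries for 3 genes, and 29 genes met this when IVF 3 was left aside. Both counts are given without their share over all genes. Without IVF 3 the fit called 28 genes higher (30.2% of all genes), with a median of 2.88, and without 39-week IVF 1, which shares the estimate of the spread, it called 32 higher (32.3% of all genes) and 3 lower (*Ccno*, *Rfx3* and *Tekt2*; 29.5% of all genes). *Ccno* was 14.4 to 95.9 CPM at E18.5 (median 71.4) and 12.9, 21.1, 30, 35.2 and 16.1 CPM at 12 weeks, and it was lower by the test although the ranges overlapped (log2 fold change -1.30, SE 0.35, edgeR adjusted p = 0.00263). *Gmnc* had a log2 fold change of 2.13 (edgeR adjusted p = 0.0323) and *Mcidas* of 0.24 (edgeR adjusted p = 0.872). *Fam183b* gave 966 counts at 12 weeks against 2 at E18.5, a CPM ratio of 270 (95% counting interval 74.7 to 2236). This interval leaves out the spread between ovaries.

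Other lists gave a measure of how far this rise was shared. In Natural ovaries 50 of 75 other motile cilium genes were higher at 12 weeks than at E18.5 and 1, *Dnah8*, was lower, with a median log2 fold change of 3.04. Genes for intraflagellar transport and the primary cilium, which non-motile cilia also use, had 4 of 40 higher and 4 lower, with a median of 0.13. General epithelial markers had 0 of 12 higher by edgeR or DESeq2 and 1 lower (4 at an unadjusted p below 0.05), with a median of 0.90, and of the oviduct secretory markers 1 of 4, *Ovgp1*, was higher.

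Between 12 and 39 weeks the motile cilia genes fell in Natural ovaries. The test called 34 of 42 genes lower and none higher (11.6% of all genes were called lower). The median log2 fold change was -3.50 against 0.00 over all genes. For 39 genes every 39-week Natural ovary lay below every 12-week Natural ovary, a count given without its share over all genes. *Foxj1* was 28.1, 3.17, 0.277, 2.92 and 1.64 CPM in Natural ovaries 1 to 5 at 39 weeks, all below the 135 to 464 CPM of 12 weeks. It fell by 4.98 on the log2 scale (SE 1.5, edgeR adjusted p = 0.0188). *Gmnc*, at 0.205, 0, 0, 0.0679 and 0 CPM, fell by 5.81 (SE 1.07, edgeR adjusted p = 0.000739). *Mcidas* was reduced to 1 count over the 5 libraries, against 74 counts over the 4 libraries of 12 weeks, a CPM ratio of 93.3 (95% counting interval 16.2 to 3734). The interval for *Mcidas* leaves out the spread between ovaries. *Ccno*, at 6.67, 9.82, 8.96, 11.2 and 6.85 CPM, was not called (log2 fold change -0.48, SE 0.38, edgeR adjusted p = 0.4). *Rfx2* fell by 1.37 on the log2 scale (edgeR adjusted p = 0.0341) and *Rfx3* was not called.

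All 7 inner arm genes and 6 of 7 outer arm genes were lower. *Dnah5* was 13.9, 1.36, 0.387, 0.272 and 0.208 CPM in the 39-week Natural ovaries, Natural 1 being the highest, and fell by 4.99 on the log2 scale (SE 1.54, edgeR adjusted p = 0.0213). *Dnah6*, at 10.2, 1.52, 0.332, 2.1 and 2.1 CPM, fell by 4.24 (SE 1.3, edgeR adjusted p = 0.0211). Both assembly factors and all 3 ruler and nexin link genes were lower. *Zmynd10* was 1.9, 0.841, 0.443, 1.63 and 2.67 CPM, a log2 fold change of -3.95 (SE 1.10, edgeR adjusted p = 0.012). *Ccdc40* was 6.93, 0.881, 0, 1.63 and 2.05 CPM, a log2 fold change of -4.49 (SE 1.25, edgeR adjusted p = 0.012). For both genes the 39-week values were below all 12-week Natural values. *Rsph4a*, at 4.31, 0.441, 0, 0.339 and 0.0519 CPM, fell by 4.91 on the log2 scale (SE 1.51, edgeR adjusted p = 0.0211), and *Tekt1*, at 2.57, 0.721, 0.332, 0.916 and 1.43 CPM, fell by 3.80 (SE 1.21, edgeR adjusted p = 0.0256). *Hydin*, at 6.67, 0.962, 1.82, 1.29 and 2.62 CPM, just missed the threshold (log2 fold change -3.50, SE 1.28, edgeR adjusted p = 0.0504) although its groups did not overlap. *Tppp3*, at 19.1, 9.46, 11, 8.55 and 9.19 CPM, fell by 3.47 (SE 0.70, edgeR adjusted p = 0.00145). The other genes not called were *Dnah9*, *Rsph1*, *Rsph9*, *Spag6* and *Tekt2*. The 39-week library IVF 1 shares the estimate of the spread in this model. Without it *Hydin*, *Dnah9*, *Rsph1*, *Rsph9* and *Tekt2* were called lower (edgeR adjusted p = 0.00192, 0.00416, 0.00165, 0.00781 and 0.00503), and *Ccno*, *Rfx3* and *Spag6* were again not called. Leaving out 12-week Natural 3 instead, which had the highest level of its table for 39 genes, reduced the called genes from 34 to 15. In that fit 8.06% of all genes were called lower.

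The genes not yet given by library are described by their ranges in Natural ovaries. In the outer arm, the intermediate chains *Dnaic1* and *Dnaic2* were 0.374 to 1.55 and 0.276 to 3.3 CPM at E18.5, 6.35 to 26.6 and 17.5 to 72.7 CPM at 12 weeks, and 0.111 to 1.49 and 1.08 to 5.6 CPM at 39 weeks. The docking gene *Armc4* was 0 to 0.811, 4.95 to 19.2 and 0 to 1.03 CPM at the 3 ages, and *Dnah11* was 1.75 to 4.02, 7.17 to 31.8 and 0.553 to 2.82 CPM. All 4 were called lower at 39 weeks. The docking gene *Ccdc114* differed in being well above 0 in the fetus, at 7.79 to 20.2 CPM, then 18.3 to 43.8 and 4.37 to 10.6 CPM, and was called for the later fall only (log2 fold change -1.67, edgeR adjusted p = 0.0136).

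In the inner arm, the heavy chains *Dnah3*, *Dnah7a* and *Dnah12* were 0 to 1.2, 0.325 to 0.842 and 1.29 to 3.09 CPM at E18.5, and 16.2 to 91, 1.91 to 9.28 and 14.7 to 73.5 CPM at 12 weeks. At 39 weeks they were 0.2 to 6.88, 0 to 0.597 and 0.0553 to 4.98 CPM. The light intermediate chain *Dnali1* was 0 to 0.674, 24.6 to 82.2 and 0.111 to 3.13 CPM, and the fall at 39 weeks was called for all 4. *Dnah2* was 9.33 to 19.8 CPM in the fetus, 13.8 to 40.5 CPM at 12 weeks and 2.56 to 11.1 CPM at 39 weeks, and fell by 1.96 on the log2 scale at 39 weeks (edgeR adjusted p = 0.0237). The assembly factor *Lrrc6* was 0.368 to 1.89, 2.48 to 6.6 and 0.0801 to 0.805 CPM. *Ccdc39* was 3.49 to 7.3, 10.1 to 50.1 and 1.55 to 4.31 CPM, and *Drc1*, of the nexin link, 0.92 to 2.16, 8.33 to 40.4 and 0.111 to 3.34 CPM. These 3 were also called lower at 39 weeks.

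Of the spoke and central apparatus genes, *Rsph1* and *Rsph9* were 0.46 to 2.56 and 3.41 to 5.43 CPM at E18.5, 10.5 to 30.1 and 7.76 to 15.3 CPM at 12 weeks, and 1.94 to 6.02 and 2.68 to 6.69 CPM at 39 weeks. Their rise was called, and their fall was called only without 39-week IVF 1. *Spag16*, *Spag17* and *Spef2* were 0.368 to 0.649, 0.135 to 0.935 and 0.487 to 2.23 CPM in the fetus, 6.14 to 17.4, 4.95 to 19.9 and 10.9 to 38.8 CPM at 12 weeks, and 0 to 0.976, 0.2 to 2.44 and 0.996 to 3.23 CPM at 39 weeks. Both changes were called for these 3, while *Spag6* stayed between 0 and 0.96 CPM in every Natural ovary. *Tekt2* was 8.03 to 29.5, 8.69 to 13.1 and 1.6 to 5.92 CPM, and *Tekt4* 0 to 0.27, 7.41 to 21.4 and 0.361 to 2.21 CPM. *Ak7*, an adenylate kinase of cilia, was 1.75 to 5.6, 21.8 to 82.2 and 1.8 to 5.8 CPM, and *Dynlrb2* 0.325 to 0.561, 11.8 to 33.6 and 0 to 2.36 CPM. *Ccdc113*, *Ak8* and *Fam183b* were 0 to 0.811, 0.368 to 1.21 and 0 CPM in the fetus, 4.31 to 9.86, 2.06 to 7.15 and 10.4 to 24.1 CPM at 12 weeks, and 0.0801 to 0.623, 0.111 to 0.822 and 0.2 to 1.85 CPM at 39 weeks. The fall was called for these 5 and for *Tekt4*.

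In IVF ovaries the contrast of 39 against 12 weeks called 0 of 42 genes with all 5 libraries per age, and 6.19% of all genes. At an unadjusted p below 0.05 there was 1 gene, and DESeq2 called 1, *Gmnc* (log2 fold change -2.77, edgeR adjusted p = 0.059, DESeq2 adjusted p = 0.028; 4.19% of all genes were called lower by DESeq2). The median log2 fold change was 0.38. This rested on 39-week IVF 1. *Foxj1* was 764 CPM in that library and 0.103, 8.5, 4.66 and 1.04 CPM in IVF 2 to 5, and *Dnah5* was 323 CPM against 0.129, 4, 2.02 and 0.345 CPM. For 36 of the 42 genes IVF 1 was the highest of all 19 adult ovaries. Leaving this library out, 37 of 42 genes were lower at 39 weeks (6.8% of all genes were called lower) with a median of -3.72. *Foxj1* then fell by 4.71 on the log2 scale (SE 1.08, edgeR adjusted p = 0.00503), *Dnah5* by 5.09 (SE 1.18, edgeR adjusted p = 0.00529), *Gmnc* by 4.44 (SE 0.88, edgeR adjusted p = 0.00177) and *Tppp3* by 1.73 (SE 0.37, edgeR adjusted p = 0.00282). *Ccno*, *Rfx3*, *Dnah2*, *Rsph9* and *Spag6* were not called, and *Dnah2* had a log2 fold change of -0.02. Counting the 39-week ovaries of both groups other than IVF 1, all 9 lay below the lowest 12-week Natural ovary for 38 genes. The share of all genes that met this is not given.

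**Figure D3:**
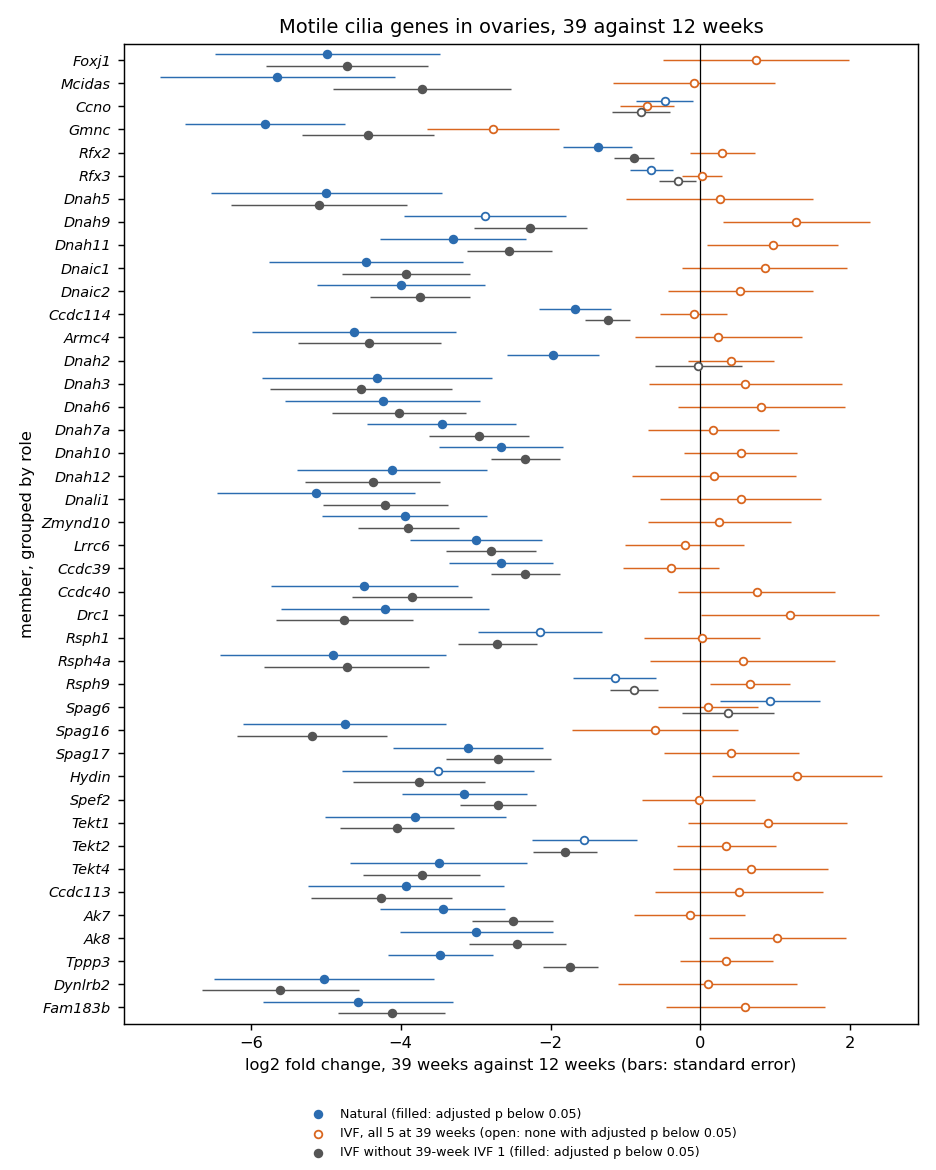
Log2 fold change of each motile cilia gene at 39 against 12 weeks, with bars of 1 SE, in Natural ovaries, in IVF ovaries with all 5 libraries, and in IVF ovaries without 39-week IVF 1; filled points passed an edgeR adjusted p of 0.05. Natural ovaries (34 genes called) and IVF ovaries without IVF 1 (37 called) lie below 0 for nearly all genes, and IVF ovaries with all libraries (0 called) lie around 0.

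Marker genes of other cells moved along in this contrast. In Natural ovaries all 12 general epithelial markers were lower at 39 weeks (median log2 fold change -3.37), as were all 4 oviduct secretory markers (*Ovgp1*, *Pax8*, *Sox17* and *Muc1*; median -4.38), and 0 of 7 granulosa markers were called by edgeR or DESeq2 (1 at an unadjusted p below 0.05, median -0.09). Of 75 other motile cilium genes 64 were lower and 1, *Dnah8*, was higher, with a median of -3.47, and of 40 genes for intraflagellar transport and the primary cilium 15 were lower and 1 higher, with a median of -0.43. In IVF ovaries without IVF 1, 7 of 12 epithelial markers, 63 of 75 other motile cilium genes and 11 of 40 intraflagellar transport and primary cilium genes were lower. How far a differing amount of epithelium in the tissue sampled takes part in the fall was not tested.

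At E18.5 the labels give the same day for all fetal ovaries, as do a figure legend and the tissue collection text of the study. Another passage of its methods places the cesarean section of IVF pregnancies a day later than that of Natural ones. If this holds for these ovaries, a difference in gestational age and the mode of conception cannot be told apart. The IVF and Natural ovaries differed in 1 of the 24 motile cilia genes with enough counts to be tested. *Tppp3* was 33.1, 30.2, 29.4 and 39.6 CPM in Natural ovaries and 13.9 to 23.7 CPM in the 6 IVF ovaries (median 17.5). Every IVF ovary lay below every Natural ovary, and *Tppp3* was lower in IVF (log2 fold change -0.90, SE 0.16, edgeR adjusted p = 0.0129; 2.75% of all genes were called lower). Among the tested genes, 5 had an unadjusted p below 0.05, and the median log2 fold change was 0.23 against 0.00 over all genes. DESeq2 called *Dnah2* and *Ccdc39* higher as well (5.09% of all genes were called higher). *Dnah2*, an inner arm heavy chain, was 9.33, 19.8, 15.6 and 11.3 CPM in Natural ovaries and 15 to 33.2 CPM in IVF ovaries (median 28.7), with overlap, a log2 fold change of 0.90 (SE 0.25, edgeR adjusted p = 0.0502, DESeq2 adjusted p = 0.0069). *Ccdc39* was 3.49, 7.3, 5.89 and 5.46 CPM in Natural and 7.21 to 11.7 CPM in IVF ovaries (median 9.5), a log2 fold change of 0.76 (SE 0.24, edgeR adjusted p = 0.078, DESeq2 adjusted p = 0.023). Its ranges overlapped narrowly. In the same contrast 3 of 5 smooth muscle markers were lower in IVF (median -0.87), and the 12 general epithelial markers had a median of -0.54 with 0 called by edgeR (4 at an unadjusted p below 0.05, 3 lower by DESeq2). Their part in the level of *Tppp3* was not tested.

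The other genes gave no call at E18.5. *Foxj1* was 6.41 to 13.3 CPM in Natural and 6.27 to 16.2 CPM in IVF ovaries, a log2 fold change of 0.00 (SE 0.27, edgeR adjusted p = 0.996). *Ccno* was 34.5 to 112 CPM against 14.4 to 95.9 CPM (log2 fold change -0.42, SE 0.42, edgeR adjusted p = 0.569). The outer arm chain *Dnah9* was 8.6, 9.26, 2.48 and 17 CPM in Natural ovaries and 0.593 to 8.86 CPM in IVF ovaries (median 3.73), a log2 fold change of -1.37 (SE 0.62, edgeR adjusted p = 0.194), and *Dnah10* had a log2 fold change of -1.05 (SE 0.43, edgeR adjusted p = 0.157). Natural 4 held the highest level of *Ccno*, *Dnah9* and *Dnah10* (112, 17 and 15.4 CPM), and IVF 2 (14.4, 0.593 and 1.78 CPM) and IVF 4 (29.9, 0.697 and 2.59 CPM) the lowest. Oocyte markers varied in the same ovaries, at 404 CPM in Natural 4 and 8.11 and 13.4 CPM in IVF 2 and IVF 4 against 94.1 to 209.5 CPM in the remaining 7, and 3 of the 6 tested (*Zp1*, *Zp3* and *Gdf9*) were lower in IVF, with a median of -1.98. Their part in the levels of these 3 genes was not tested. *Dnah5* was 0.935 to 1.95 CPM in Natural and 0.995 to 3.83 CPM in IVF ovaries (log2 fold change 0.75, SE 0.43, edgeR adjusted p = 0.304). *Ccdc40*, *Zmynd10* and *Hydin*, at 1.55 to 5.05, 0.92 to 2.9 and 0.736 to 1.62 CPM in Natural and 4.15 to 5.83, 1.38 to 3 and 0.597 to 3.08 CPM in IVF ovaries, had log2 fold changes of 0.25, 0.20 and 0.29 (edgeR adjusted p = 0.661, 0.788 and 0.756). *Mcidas*, *Gmnc*, *Dnah6*, *Rsph4a* and *Tekt1* were too low to be tested, with IVF ranges of 0 to 0.796, 0.198 to 0.572, 0.513 to 1.83, 0 to 0.833 and 0.342 to 1.19 CPM.

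At 12 weeks 0 of 41 tested genes were called between IVF and Natural ovaries by edgeR, at a background of 0.00567% of all genes. At an unadjusted p below 0.05 there were 4 genes, and DESeq2 called 1, the radial spoke gene *Rsph9*, lower in IVF (log2 fold change -1.04, SE 0.33, edgeR adjusted p = 0.218, DESeq2 adjusted p = 0.0422; 2.73% of all genes were called lower by DESeq2). The log2 fold change was negative for 39 genes, all but *Ccno* and *Dnah2*, with a median of -0.90 against 0.01 over all genes. *Tppp3* was the only gene for which every IVF ovary (53.7, 83, 15, 76.1 and 109 CPM) lay below every Natural ovary (134, 112, 200 and 109.2 CPM), with a log2 fold change of -1.04 (SE 0.44, edgeR adjusted p = 0.318). IVF 5 and Natural 4 nearly met. *Foxj1* was 231, 159, 464 and 135 CPM in Natural ovaries and 95.1, 164, 0, 84.2 and 160 CPM in IVF ovaries (log2 fold change -1.29, SE 0.92, edgeR adjusted p = 0.534). IVF 2 and IVF 5 lay within the Natural range and IVF 3 far below it.

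The coiled-coil regulators *Mcidas* and *Gmnc* gave no call either. *Mcidas* was 0.87, 0.54, 1.03 and 0.401 CPM in Natural and 0, 0.827, 0, 0 and 0.315 CPM in IVF ovaries (log2 fold change -1.31, SE 0.92, edgeR adjusted p = 0.525). *Gmnc* was 2.48, 1.18, 6.36 and 3.28 CPM and 1.71, 2.1, 0, 1.41 and 2.74 CPM (log2 fold change -0.995, SE 0.72, edgeR adjusted p = 0.535). In IVF 4, the shallowest ovary library at 2839022 counts, 3 counts would be 1.06 CPM, so its 0 for *Mcidas* cannot be told from the Natural levels. *Ccno* went the other way, at 10.2, 17.4, 10.9 and 13.9 CPM in Natural and 12.9, 21.1, 30, 35.2 and 16.1 CPM in IVF ovaries, and its ranges overlapped (log2 fold change 0.77, SE 0.29, edgeR adjusted p = 0.279). Oocyte markers summed to 367 and 342 CPM in IVF 3 and IVF 4, the ovaries highest in *Ccno*, against 112 to 247 CPM in the others. Their part in the level of *Ccno* was not tested. *Dnah5* was 52.9, 104, 0, 23.9 and 112 CPM in IVF ovaries against 43.5 to 226 CPM in Natural ovaries (log2 fold change -0.87, SE 0.94, edgeR adjusted p = 0.695). *Dnah6* was 26.1, 63.5, 0.308, 22.5 and 63.4 CPM against 26 to 133 CPM, *Zmynd10* 11.2, 19.2, 0.411, 7.04 and 17.8 CPM against 15.3 to 43.4 CPM, and *Ccdc40* 26.2, 48.6, 1.23, 18.3 and 41.8 CPM against 30 to 107 CPM. *Rsph4a* was 14.7, 33, 0, 13.4 and 35.9 CPM against 15.5 to 64.7 CPM, *Hydin* 14.6, 37, 0.205, 7.75 and 38.2 CPM against 14.3 to 76.3 CPM, and *Tekt1* 6.64, 12, 0.617, 9.86 and 12.8 CPM against 12.2 to 29.5 CPM. In each of these 7 genes IVF 3 was the lowest ovary and Natural 3 the highest, and IVF and Natural ovaries overlapped.

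Without IVF 3 the median log2 fold change at 12 weeks was -0.62 and again 0 genes were called. With all 9 ovaries the members had a median of -0.90 and the other motile cilium genes one of -1.01. Of these other genes 0 of 75 were called and 10 had an unadjusted p below 0.05 (0 called by DESeq2). Intraflagellar transport and primary cilium genes had a median of -0.17 with all 9 ovaries. Again with all 9 ovaries, the general epithelial markers had a median of -1.76 and granulosa markers one of 0.49. Of the epithelial markers 12 of 12 had an unadjusted p below 0.05 and 0 were called by edgeR (8 lower by DESeq2). Summed epithelial markers were 1182 to 1945 CPM in Natural ovaries and 362 to 695 CPM in IVF ovaries other than IVF 3, and did not overlap. Their part in the levels of the motile cilia genes was not tested.

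At 39 weeks 0 of 37 tested genes were called by edgeR (0.262% of all genes). At an unadjusted p below 0.05 there were 18, in the fit with IVF 1 and given without a share over all genes. DESeq2 called 1, *Dnah2*, higher in IVF (log2 fold change 2.57, SE 0.73, edgeR adjusted p = 0.121, DESeq2 adjusted p = 0.017; 2.81% of all genes were called higher by DESeq2). The log2 fold change was positive for 36 genes, with a median of 3.32. It turned to -0.68 without IVF 1, again with 0 genes called. *Foxj1* had a log2 fold change of 4.50 (SE 2.07, edgeR adjusted p = 0.266) with IVF 1 and of -1.04 (SE 1.23, edgeR adjusted p = 0.674) without it. *Dnah2* kept its direction, with 5.34, 2.56, 11.1, 4.92 and 10.3 CPM in Natural ovaries and 85.3, 65.6, 7.09, 39.3 and 8.35 CPM in IVF ovaries, and 2.09 (SE 0.68, edgeR adjusted p = 0.13) without IVF 1. IVF 2 and IVF 4 were also above all Natural ovaries for this gene.

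For most other genes IVF 1 stood far above the rest of its group. *Dnah6* was 281, 0.594, 4.21, 2.8 and 0.461 CPM in IVF ovaries 1 to 5 (log2 fold change 4.22, SE 1.79, edgeR adjusted p = 0.24). *Zmynd10* was 59.8, 0.206, 1.35, 0.693 and 0.547 CPM, and *Ccdc40* 207, 1.03, 3.82, 1.32 and 0.893 CPM. *Rsph4a* was 131, 0.129, 1.35, 0.977 and 0.288 CPM, and *Hydin* 220, 0.103, 2.76, 1.67 and 0.893 CPM. In IVF 2 to 5 these 5 genes stayed within or below the Natural range. *Tekt1* was 70.2, 0.0516, 0.931, 0.819 and 0.0576 CPM, *Gmnc* 0.965, 0.0516, 0.15, 0 and 0.0576 CPM, and *Mcidas* 1.29, 0.0516, 0, 0 and 0 CPM. *Tppp3* was 321, 32.6, 14.1, 16.2 and 11.6 CPM (log2 fold change 2.82, SE 0.97, edgeR adjusted p = 0.173), and *Ccno* 15.7, 14.9, 7.42, 14.6 and 9.93 CPM (log2 fold change 0.54, SE 0.24, edgeR adjusted p = 0.255). *Spag6* was the only gene with no count in IVF 1, at 0, 0.155, 0.421, 0.378 and 0.288 CPM against 0.166 to 0.96 CPM in Natural ovaries. The other motile cilium genes had a median of 2.59 with all ovaries. Epithelial markers had a median of 2.60 (0.36 without IVF 1), and oviduct secretory markers one of 3.22 (-0.52 without IVF 1), summing to 6529 CPM in IVF 1 against 14.7 to 134 CPM in the other 39-week ovaries.

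Whether the effect of conception differed between the adult ages was tested as an interaction. edgeR called 0 of 42 genes (0.0157% of all genes), although 33 had an unadjusted p below 0.05. These 33 come from the fit with 39-week IVF 1 and are given without a share over all genes. The median difference of the log2 fold changes (39 weeks minus 12 weeks) was 4.22. DESeq2 called 3, *Dnali1*, *Tppp3* and *Fam183b*, with a more positive IVF effect at 39 weeks (DESeq2 adjusted p = 0.038, 0.021 and 0.044; 3.72% of all genes were called in that direction). *Foxj1* differed by 5.77 (SE 2.36, edgeR adjusted p = 0.189) and *Tppp3* by 3.85 (SE 1.13, edgeR adjusted p = 0.107). Without 39-week IVF 1 the median difference was 0.26 and again 0 genes were called.

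*Ovgp1*, the secreted oviductal glycoprotein, followed *Foxj1* across adult ovaries. It was 28, 28.2, 23.7 and 2.77 CPM in E18.5 Natural ovaries and 13.3 to 33.4 CPM in IVF ovaries (median 18). At 12 weeks it was 5446, 2675, 6371 and 2738 CPM in Natural and 2340, 2681, 2.36, 634 and 276 CPM in IVF ovaries, and at 39 weeks 106, 2.16, 1.44, 8.49 and 2.7 CPM in Natural and 6352, 0.877, 13, 16.2 and 1.15 CPM in IVF ovaries. The libraries lowest and highest in *Foxj1* at 12 weeks (IVF 3 and Natural 3) and highest at 39 weeks (IVF 1) were also those of *Ovgp1*. Over log2 CPM, Pearson's r between *Foxj1* and *Ovgp1* was 0.941 in the 9 ovaries of 12 weeks (exact permutation p = 0.00654, adjusted over 6 relations 0.0131) and Spearman's rho 0.7 (exact permutation p = 0.0433, adjusted 0.0609). At 39 weeks r was 0.962 in 10 ovaries (permutation p = 3e-05, adjusted 0.00018) and rho 0.939 (permutation p = 0.00027, adjusted 0.00081). At E18.5 r was 0.621 (permutation p = 0.0535, adjusted 0.0609) and rho 0.624 (permutation p = 0.0609, adjusted 0.0609), which did not pass. Leaving out the 2 ovaries farthest from the median of *Ovgp1* gave r of 0.851 at 12 weeks (without IVF 3 and IVF 5), 0.836 at 39 weeks (without IVF 1 and Natural 1) and 0.452 at E18.5. Within Natural and within IVF ovaries r was 0.904 and 0.938 at 12 weeks, 0.9 and 0.976 at 39 weeks, and 0.863 and 0.443 at E18.5. Within the groups rho was lower than r in all 6 cases, at 0.8 and 0.4 at 12 weeks, 0.7 and 0.9 at 39 weeks, and 0.8 and 0.429 at E18.5. The 12-week ovary IVF 5, with 160 CPM of *Foxj1* and 276 CPM of *Ovgp1*, went against the relation.

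**Figure D4:**
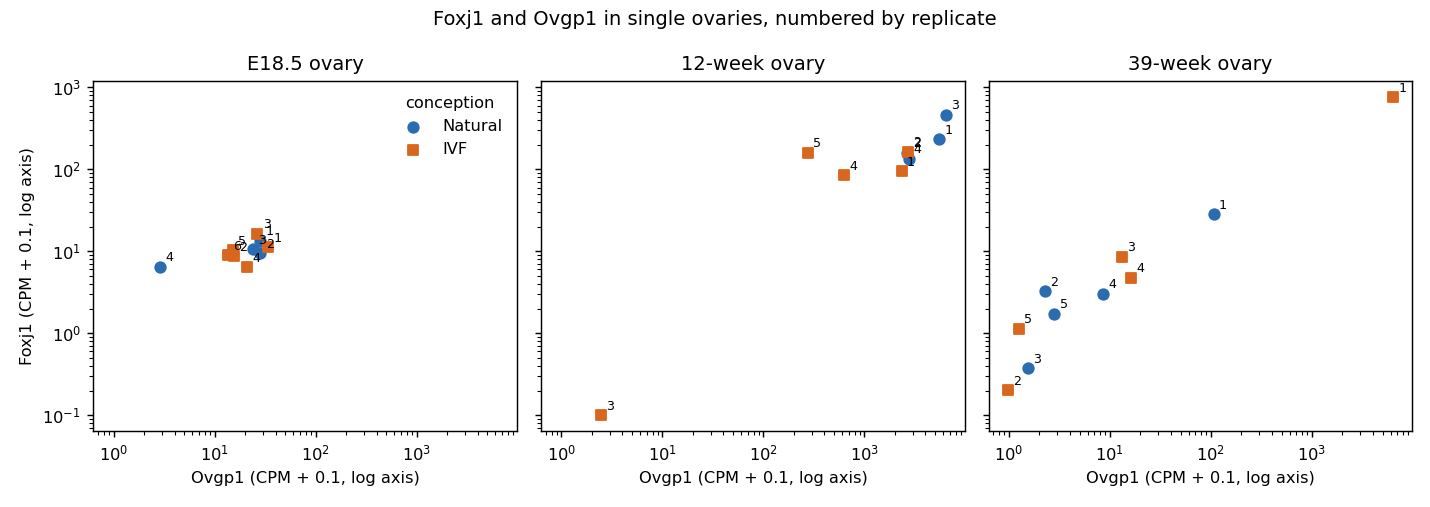
Level of Foxj1 (vertical axis) against Ovgp1 (horizontal axis; both CPM plus 0.1 on log axes) in each ovary, by age and group, with replicate numbers beside the points. The 12-week ovary IVF 3 lies at the lower left, far from the other 12-week ovaries, and the 39-week ovary IVF 1 lies at the upper right, far from the other 39-week ovaries.

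*Ovgp1* itself was higher at 12 weeks than at E18.5 in Natural (log2 fold change 7.75, SE 2.26, edgeR adjusted p = 0.00592) and IVF ovaries (5.95, SE 1.72, edgeR adjusted p = 0.00441). It fell by 7.33 on the log2 scale by 39 weeks in Natural ovaries (SE 2.00, edgeR adjusted p = 0.0107) and by 7.12 in IVF ovaries without IVF 1 (SE 1.51, edgeR adjusted p = 0.00288). Between IVF and Natural ovaries it was not called at any age, with log2 fold changes of -0.03, -1.87 and 5.76 at E18.5, 12 and 39 weeks (edgeR adjusted p = 0.975, 0.468 and 0.257).

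The genes most like the motile cilia genes were found by the correlation of each gene's log2 CPM with the members' mean over the 19 adult ovaries, after each age was centred. Of 16688 genes compared, those ranked highest were *Cdhr4* (r 0.995), *Ccdc162* (0.988), *Ttc25* (0.987), *Ccdc151* (0.984), *Cfap46* (0.984), *Cfap52* (0.983), *Dlec1* (0.982), *Ubxn10* (0.981), *Ak9* (0.98) and *Cfap99* (0.98). An r over 0.9 was reached by 267 genes, 1.6% of those compared, and 26 of the 100 highest belonged to the list of other motile cilium genes. The 61 compared genes of that list had a median r of 0.942, and all genes one of -0.04. *Ovgp1* ranked 127, with an r of 0.94. Among the members, 29 had an r over 0.9 with the mean of the others, 10 had an r from 0.7 to 0.9, and 3 were below, namely *Dnah2* (0.455), *Ccno* (-0.197) and *Spag6* (-0.434). Without 12-week IVF 3 and 39-week IVF 1 the correlations were lower. Over the other 17 ovaries these 10 genes had an r of 0.882 to 0.967, 23 genes (0.138%) had an r over 0.9, and 72 of the 100 highest genes were shared with the ranking over 19 ovaries. *Ovgp1* then had an r of 0.728 (rank 176), the other motile cilium genes had a median of 0.761, and 7 members had an r over 0.9, 22 from 0.7 to 0.9 and 13 below. Genes are not independent of each other.

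In most oocytes *Ccno* made up the greater part of the summed level of the motile cilia genes, whereas in PGCs and cumulus cells it was at most 6.455 and 0.735 CPM. In the 76 oocytes of 12 weeks the summed level of the members was 139 to 393 CPM (median 283.4), and *Ccno* made up 3.92% to 78.2% of it (median 65.9%). *Ccno* ranged from 11.9 to 291 CPM per oocyte (median 183), and *Ccno*, *Dnah9* and *Dnah10* were the genes with a count in every oocyte. Among them 10 oocytes (4 Natural, 6 IVF) stood apart, with 7 oocyte markers summing to 1730 to 7898 CPM against 16106 CPM or more in the other 66. In these 10 *Ccno* was 11.9 to 147 CPM (median 47.6) and *Dnah10* 11.9 to 135 CPM (median 55.9), against 107 to 291 CPM (median 189) and 5.64 to 30.7 CPM (median 17.4) in the other 66, of whose summed level *Ccno* made up 51.7% to 78.2%. *Foxj1* had a count in 3 of 76 oocytes, and *Gmnc* and *Fam183b* in 0 of 76, which allows a share of up to 3.95% of oocytes with a count if oocytes of 1 set are taken as separate draws. Oocytes and ovaries were sequenced from different kinds of library, so their levels are set side by side without a test. *Ccno* was 10.2 to 35.2 CPM in the 9 whole ovaries of 12 weeks.

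**Figure D5:**
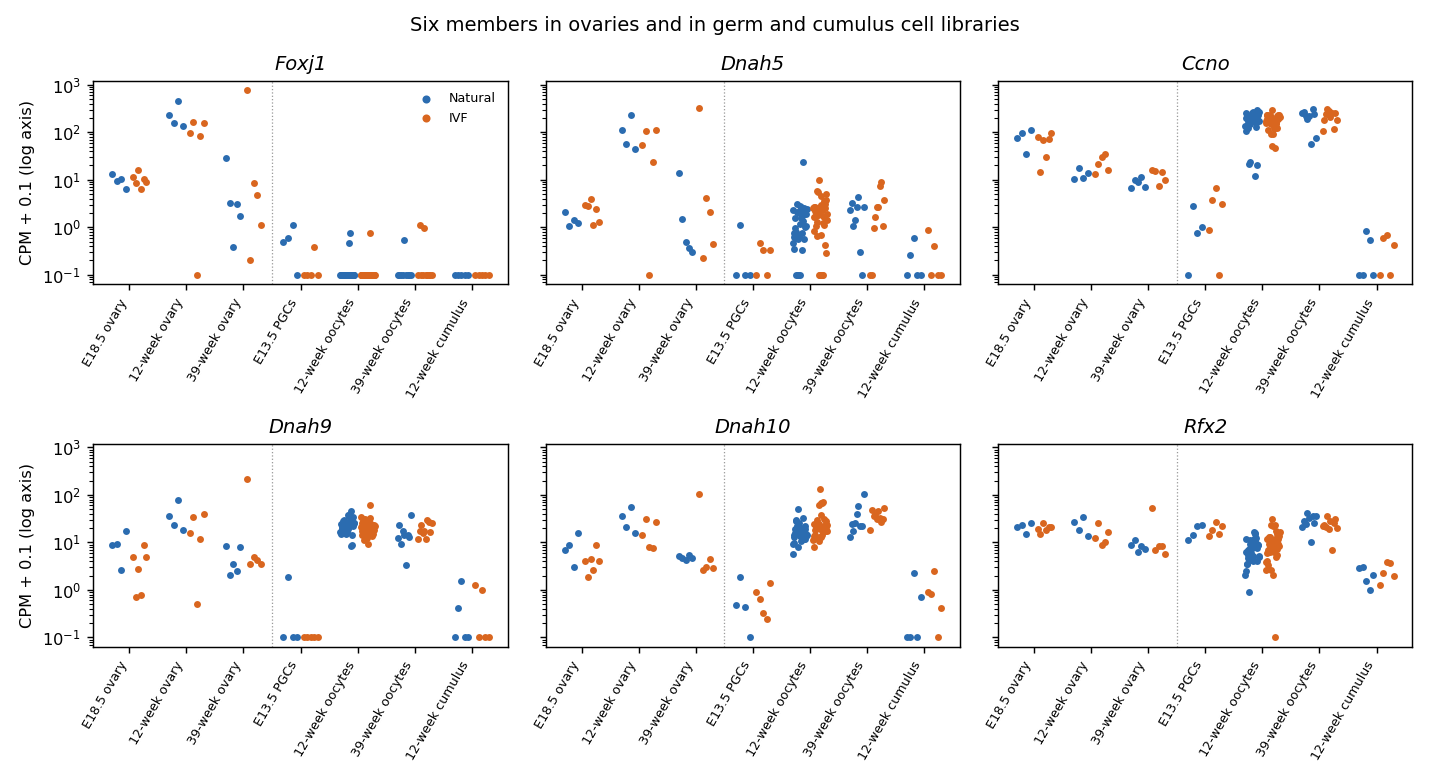
Level of 6 motile cilia genes (Foxj1, Dnah5, Ccno, Dnah9, Dnah10 and Rfx2; CPM plus 0.1 on a log axis) in every library of the 7 tables, by group. Foxj1 is high in 12-week ovaries other than IVF 3 and near 0 in oocytes and cumulus cells, while Ccno is higher in oocytes than in any adult ovary for most libraries.

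Oocyte counts were summed over the 5 Natural and 5 IVF library sets before testing, because cells of 1 set are not replicates of a condition. Sets within a group share leading numbers in their names, and the labels do not say what these stand for. The fit took the sets as independent, so its SEs are too small if such sets share a source. *Ccno* was 166.9, 143.6, 223, 170 and 217 CPM in the Natural sets and 173, 183, 158, 141 and 211 CPM in the IVF sets (log2 fold change -0.20, SE 0.16, edgeR adjusted p = 0.884). *Dnah10* was 14.8, 22.6, 18.4, 14 and 15.6 CPM and 16.2, 22.2, 36, 24.6 and 20.9 CPM (log2 fold change 0.34, SE 0.20, edgeR adjusted p = 0.82). *Dnah9* was 20.3, 20.7, 23.1, 32.4 and 24.2 CPM and 23.6, 21.6, 18.8, 21.9 and 19.7 CPM (log2 fold change -0.31, SE 0.16, edgeR adjusted p = 0.776). The sets of both groups overlapped for all 3 genes, and 0 of 27 tested members were called by edgeR (0.0277% of all genes), DESeq2 or limma, with 0 at an unadjusted p below 0.05 in edgeR. Without the 10 oocytes of low oocyte markers, left out after the data were seen, 0 of 26 tested members were called, again with 0 at an unadjusted p below 0.05, and *Ccno* had a log2 fold change of -0.17 (SE 0.12, edgeR adjusted p = 0.87).

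The 39-week oocytes could not be tied to separate females or sets, so each group is 1 sample and no test was made. *Ccno* was 197.6 CPM over the 9 Natural oocytes (95% Poisson interval 195 to 200.0) and 203.8 CPM over the 10 IVF oocytes (202 to 206), intervals that cover counting error only. These intervals take each count as independent, and 69% of non-zero counts in these oocytes were even. They are too narrow if both reads of a pair were counted. *Dnah10* was 40.2 CPM (39 to 41.4) and 35.2 CPM (34.3 to 36.1), and *Rfx2* 27.4 CPM (26.5 to 28.4) and 24.7 CPM (24 to 25.4). Single oocytes spread far more widely than these intervals, from 56.9 to 314 CPM for *Ccno* (median 222). The lowest were Natural 6 and Natural 9 (56.9 and 74.2 CPM), whose oocyte markers summed to 2881 and 6497 CPM against 18988 CPM or more in the other 17. Without them the Natural oocytes had 249 CPM of *Ccno* (246 to 253), above the IVF oocytes, and 22.1 CPM of *Dnah10* (21.1 to 23.2), which placed *Dnah10* below the IVF level and no longer above it. *Foxj1* was 0.0371 CPM (0.0101 to 0.0949) in Natural and 0.162 CPM (0.108 to 0.233) in IVF oocytes.

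In E13.5 PGC libraries, made from 100 cells each, 12 members reached a mean of 1 CPM. The 3 with the highest mean CPM, not scaled by length, were *Rfx2*, at 11.2, 14.6, 22.2 and 23.1 CPM in Natural and 13.6, 17.9, 26.2, 14.7 and 22 CPM in IVF libraries, *Rfx3*, at 7.79, 31.5, 8.95 and 10.5 CPM and 8.19, 22.1, 14.9, 11.1 and 14.8 CPM, and *Rsph1*. *Rsph1* was 5.32, 10.2, 6.3 and 8.94 CPM and 5.94, 4.35, 9.91, 4.28 and 8.05 CPM. The groups overlapped for each, with log2 fold changes of 0.03, 0.00 and -0.25 (edgeR adjusted p = 1 for all 3). edgeR and DESeq2 called 0 of 10 tested members (0% of all genes in edgeR), and 1 had an unadjusted p below 0.05. *Foxj1* was at most 0.995 CPM, and *Tekt4* had no count in any PGC library.

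Cumulus cells held the least, 11.9 to 29.7 CPM summed over the 42 genes (median 17.7). *Foxj1*, *Gmnc*, *Drc1*, *Tekt1*, *Dynlrb2* and *Fam183b* had no count in any of the 10 libraries. *Ccdc114*, *Rfx3* and *Rfx2*, the members with the highest mean CPM, were 1.48 to 7.77, 0.59 to 5.92 and 0.891 to 3.83 CPM, with log2 fold changes between IVF and Natural of 0.01, -0.28 and 0.32. With the kind of library name as a covariate, 0 of these 3 tested genes were called by edgeR (0.00973% of all genes) or DESeq2, and 0 had an unadjusted p below 0.05.

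Some levels may include reads of neighbouring or similar genes, because the sources do not say whether counting used strand. Exons of *Dnah3*, *Ccdc39*, *Spag17*, *Dnah11* and *Dnah2* overlap a gene on the opposite strand, over 1506 bases for *Dnah3* with *Lyrm1*, 1256 bases for *Ccdc39* with *Ttc14* and 312 bases for *Dnah2* with the antisense gene *Dnah2os*. Such overlap was also found for *Dnah9* (495 bases), *Tekt2* (396), *Spag6* (283), *Hydin* (237) and *Zmynd10* (214). It was shorter for *Dnah10* (188), *Dnah6* (167), *Ccdc114* (103), *Dnali1* (43) and *Dnaic1* (15). Exons of *Ovgp1* overlap *Gm42890* on the same strand over 1023 bases, which counting by strand cannot separate. *Dnah7a* has the near-identical copies *Dnah7b* and *Dnah7c*, and *Spag6* the copy *Spag6l*, so their counts are uncertain.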

How the data were processed

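RNA-seq gene counts of 143 libraries were analysed. The deposited values were raw counts per gene made by the authors, who per the submitters' processing notes used Trimmomatic 0.32, STAR 2.3.0e, featureCounts 1.5.0 and the mm10 genome. Whether counting used strand was not given in the sources used here, and 56.5% to 73.2% of non-zero counts were even, so both reads of a pair may have been counted. Ovary libraries were made with a stranded mRNA kit and low-input libraries with modified SMART-seq. Samples were grouped as Natural or IVF by their labels. The labels of 39-week Natural 5 give both 39 and 40 weeks. Of the cumulus libraries, 1 Natural library carries the set name of IVF oocytes, and 4 were matched to their group only.

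CPM was computed from library totals. Tests used edgeR 4.0.16 (R 4.3.3; quasi-likelihood, TMM factors, filterByExpr, Benjamini-Hochberg adjustment over all genes tested, threshold 0.05), with DESeq2 1.42.0 and limma 3.58.1 as alternatives. IVF was compared with Natural within each table and ages within 1 model of all ovaries. Oocyte counts of 12 weeks were summed by library set, and cumulus fits held as a covariate whether a library was named by a set number (6 libraries) or by its group (4 libraries). Correlations used log2 CPM with a prior count of 2 and permutation tests (exact for 9 ovaries, 100000 resamples for 10; scipy 1.17.1). Intervals on levels are 95% exact Poisson intervals, and those on CPM ratios are 95% exact binomial intervals. Both cover counting error only and leave out the spread between libraries. They take each count as independent and are too narrow if both reads of a pair were counted. Fits were tested on simulated data. The members, role classes and marker lists were chosen with earlier results of these data known. Every member is named; values per library are given for *Foxj1*, *Mcidas*, *Ccno*, *Gmnc*, the member of each other role class with the highest mean adult CPM, members called between IVF and Natural, and *Ovgp1*, and ranges for the rest. In low-input tables the 3 members with the highest mean CPM are given. Genes called by DESeq2 alone were named after their values were seen. Numbers of genes at an unadjusted p below 0.05, and of genes whose groups did not overlap, have no share over all genes beside them. Alternatives were DESeq2, RLE factors, library totals, no filter, a replicate block, other prior counts and leaving out each library or set. After the data were seen, oocytes with markers under 0.5 of their table's median, and the pair of ovaries that stood apart from the correlations, were left out. Depth was 4364495 to 8675189 counts in PGCs, 839781 to 10879166 and 2820748 to 31126357 counts in oocytes of 12 and 39 weeks, and 2532824 to 6345249 counts in cumulus cells. Sequences came from RefSeq (GRCm38.p6).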

Additional observations from a re-analysis of the deposited data

Results flagged for a closer look

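Single libraries lay far from the rest of their group in 22 of 90 tests (15 values in 6 groups of ovaries). The measure was Dixon's ratio of the gap to the nearest library over the range of the group. Its chance rate of about 1 in 20 holds for independent values only, and these values move together across ovaries. Of the 22 flags 13 were of 39-week IVF 1, and the class genes were picked by a mean adult level that includes this library. The count therefore cannot be set against chance. No flag was among the 12-week ovaries, although IVF 3 stood lowest there. In 39-week IVF ovaries, IVF 1 was the highest with a ratio of 0.98 for the summed members, 0.989 for *Foxj1*, 0.96 for *Mcidas*, 0.844 for *Gmnc*, 0.988 for *Dnah5*, 0.987 for *Dnah6*, 0.981 for *Zmynd10*, 0.986 for *Ccdc40*, 0.991 for *Rsph4a*, 0.988 for *Hydin*, 0.987 for *Tekt1*, 0.932 for *Tppp3* and 0.998 for *Ovgp1*. Among 39-week Natural ovaries, Natural 1 was the highest with 0.896 for *Foxj1*, 0.915 for *Dnah5*, 0.82 for *Dnah6*, 0.898 for *Rsph4a*, 0.767 for *Tppp3* and 0.933 for *Ovgp1*. Natural 4 had a ratio of 1 for *Mcidas*, resting on its single count. At E18.5, IVF 4 was the highest for *Mcidas* (0.725) and IVF 1 for *Hydin* (0.712). The cause of these positions was not tested.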

How the results depend on the processing

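Of 283 values recomputed under other settings, 242 stayed on the same side of the threshold in the same direction or, for counts and values with no test, within the allowed change, and of 1415 values with 1 library or set left out, 1312 did. With DESeq2 the calls among members were 3 (E18.5; 1 in edgeR), 1 (12 weeks), 1 (39 weeks), 3 for the interaction and 1 for IVF 39 against 12 weeks (0 in edgeR), and those among all genes 1870, 646, 1091, 1102 and 1977 (891, 1, 45, 3 and 1220 in edgeR), with 55 in oocytes and 27 in cumulus cells (4 and 1 in edgeR). Without a filter 2 members were called at E18.5, and all-gene calls were 9 at 12 weeks, 28 at 39 weeks, 759 for IVF 39 against 12 weeks, 19 in oocytes and 104 in cumulus cells. RLE factors gave 10 calls for the interaction. *Foxj1* at E18.5, near 0, turned to -0.009217 with DESeq2, -0.004059 with RLE factors and -0.01039 without a filter, and *Mcidas* in IVF 39 against 12 weeks to 0.2427 with DESeq2. Members' medians moved to -0.4572 in PGCs and 0.3619 in cumulus cells with DESeq2, and to 0.3738 in cumulus cells without a filter. In cumulus cells all-gene calls were 0 with no set covariate, 5 without the Natural library whose name matches an IVF set (Natural 5; median -0.4155), 2 without IVF 1 or Natural 3 and 3 without Natural 4. Spearman's rho of *Foxj1* and *Ovgp1* at 12 weeks was 0.767 with library totals, past the adjusted threshold. With library totals the median of all genes shifted to -0.123 in Natural 39 against 12 weeks, -0.108 in IVF 12 weeks against E18.5 and 0.154 in oocytes, and the members' medians were then -3.65, 2.47 and 0.293. The cause of these changes was not tested.

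With 1 library left out, calls among members ranged from 1 to 2 at E18.5 (2 without IVF 6), from 15 to 39 in Natural 39 against 12 weeks (15 without 12-week Natural 3) and from 0 to 37 in IVF 39 against 12 weeks (37 without 39-week IVF 1, 1 without 12-week IVF 3 or 39-week Natural 1). All-gene calls ranged from 313 to 1973 at E18.5, 1 to 5 at 12 weeks, 0 to 123 at 39 weeks, 0 to 57 for the interaction, 539 to 2606 in IVF 39 against 12 weeks, 1 to 8 in oocytes and 1 to 5 in cumulus cells. Members' medians ranged from -0.68 to 3.64 at 39 weeks, 0.255 to 4.58 for the interaction, -3.72 to 0.665 in IVF 39 against 12 weeks and -0.4155 to 0.03571 in cumulus cells. *Foxj1* ranged from -0.1888 to 0.1827 at E18.5, -1.045 to 6.355 at 39 weeks and -4.713 to 1.063 in IVF 39 against 12 weeks. *Mcidas* ranged from -1.125 to 1.064 in IVF 12 weeks against E18.5 and -3.714 to 1.281 in IVF 39 against 12 weeks. *Ovgp1* ranged from -0.408 to 0.1553 at E18.5, -1.664 to 8.519 at 39 weeks, -7.12 to 0.7362 in IVF 39 against 12 weeks, -0.3234 to 0.4735 in PGCs and -0.1262 to 0.6709 in oocytes.

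Natural and IVF replicates share numbers, and the labels do not say whether a number pairs samples. The correlation of same-numbered deviations was -0.142 to 0.00866 at E18.5, -0.358 to 0.255 at 12 weeks, 0.0294 to 0.473 at 39 weeks and -0.065 to 0.528 in PGCs. It was over 0.1 in 0 of 4, 2 of 4, 4 of 5 and 3 of 4 pairs. Samples correlated best with their own number in 0 of 4, 1 of 4, 4 of 5 and 3 of 4 pairs. At 39 weeks and in PGCs most pairs thus matched, and the main fits do not take this into account. What the numbers stand for was not tested. With a replicate block the calls among members were 0 at E18.5, where *Tppp3* had a log2 fold change of -0.85, and all-gene calls were 3 (E18.5), 0 (12 weeks) and 24 (39 weeks). The members' median at 39 weeks was then 0.6972 (3.32 without the block) and *Ovgp1* at E18.5 turned to 0.4495. For oocytes, cumulus cells and ages no paired analysis was made. The oocyte sets have different names in Natural and IVF, and the ages hold different females. Cumulus libraries named by their group share numbers between Natural and IVF, and whether these pair samples was not tested. Depth limits *Mcidas* and *Gmnc*, at or near 0 counts in most ovaries, and 12-week IVF 4.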
